A study of Mus musculus with 8 samples.

Results

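The tissue inhibitors of metalloproteinases Timp1, Timp2, Timp3 and Timp4 and the membrane-anchored inhibitor Reck were followed in the knee cartilage of mice with surgically induced osteoarthritis. The 5 genes were chosen by name and all 5 were found among the 50462 gene identifiers of the deposited table, of which 35547 had a count in at least 1 library. RNA sequencing covered 8 libraries from wild-type male C57BL/6J mice, each from the medial knee cartilage of 1 animal. Naive animals (4 libraries) were taken at 11 weeks of age, at day 0 and without surgery, and operated animals (4 libraries) were taken at 17 weeks of age, 42 days after destabilisation of the medial meniscus (DMM), a cut of the ligament that holds the medial meniscus to the tibia of the left knee. A sham operation is not represented here, and the effect of surgery cannot be told apart from that of 6 more weeks of age.

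TIMPs are small secreted proteins that block the active site of matrix metalloproteinases (MMPs), the enzymes that cut collagen and other matrix proteins. They differ in their other targets. Timp3 binds to the matrix and also inhibits the Adam sheddases and the Adamts proteoglycanases, the enzymes that cut aggrecan. Timp2 takes part in a complex with Mmp14 that activates Mmp2, and Timp1 binds the proform of Mmp9. Reck is held in the cell membrane, inhibits several MMPs and Adam10, and acts with Adgra2 as a receptor for Wnt7 ligands. In cartilage the balance of these inhibitors and their target proteases is known to bear on matrix loss.

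After DMM, Timp1 and Timp2 rose by 2.32-fold and 2.19-fold, and no naive library overlapped a DMM library for either gene. Reck was 1.35-fold higher without overlap and passed the test but not the fold threshold. Timp3 was 1.34-fold higher, with overlapping groups, and did not pass the test. Timp4 was scarce and showed no direction that held across libraries. A gene is called here where the Benjamini-Hochberg adjusted p of the DESeq2 Wald test was 0.05 or less and the difference at least 1.5-fold (0.58 on the log2 scale). By this rule 2 of the 5 inhibitors were called, both higher, beside 13.7% of the 17760 genes with an adjusted p (7.75% called higher and 5.92% lower). Scaling by total counts moved the split of all called genes from 1377 higher and 1052 lower to 2030 higher and 489 lower, and the same 2 inhibitors stayed called.

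**Figure D1:**
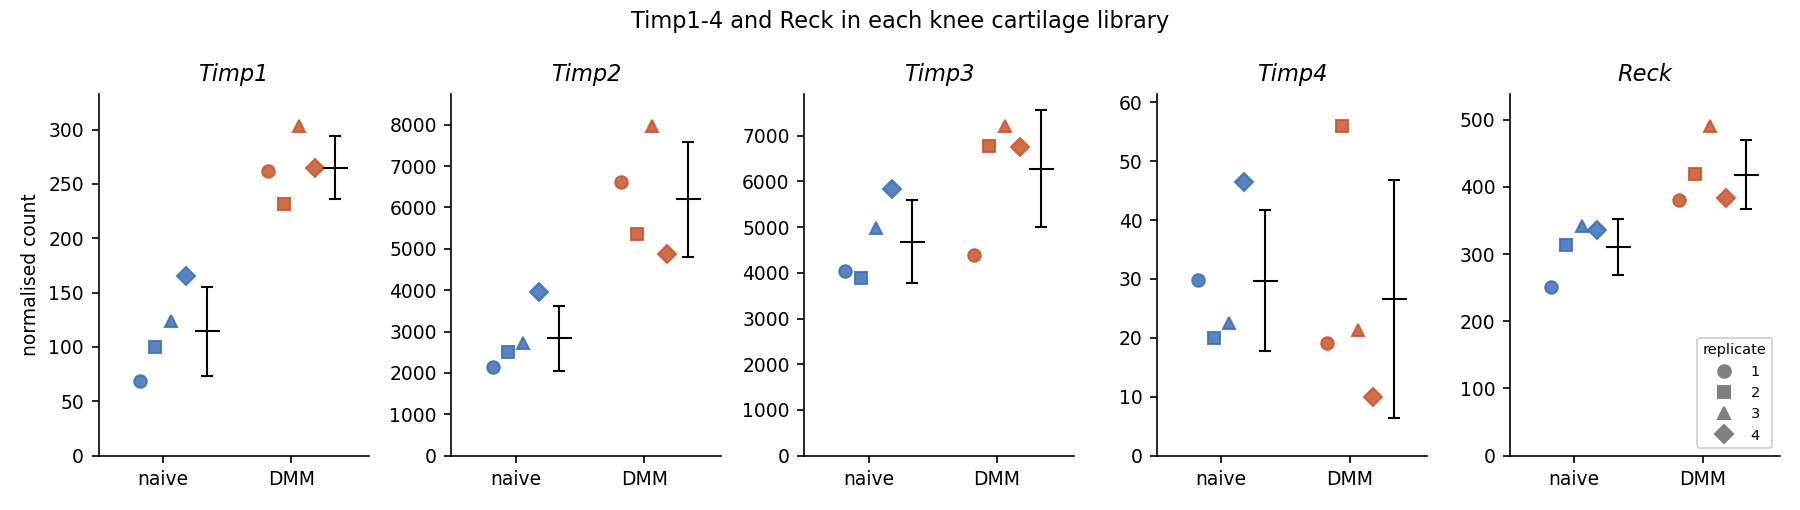
Normalised counts of the 5 inhibitor genes in each library (points, 4 naive in blue and 4 DMM in orange, with the marker shape giving the replicate number) with the group mean and SD (black). Every axis starts at 0. The groups are apart for Timp1, Timp2 and Reck and overlap for Timp3 and Timp4.

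The start regions of Timp1, Timp2 and Reck are shown because these 3 genes were higher in every DMM library than in any naive library, and those of Timp3 and Timp4 are shown beside them for comparison. The sequences are from RefSeq on GRCm38.p6, read 5′ to 3′ on the gene's strand, and all 5 genes matched an entry. Capitals mark GGGCGG or its reverse complement CCGCCC, the core of a GC box, and in the second Timp1 stretch TGAGTAA, a letter pattern close to the AP-1 consensus. A stretch of 100 bases upstream of the start is given for Timp1, Timp4 and Reck. For Timp2 and Timp3 that stretch overlaps an exon of the GENCODE gene model, whose start is 329 and 40 bases from the RefSeq start, so 30 bases around the nearest match upstream of the start are given.
Timp1 (chrX:20870066-20870165, plus strand): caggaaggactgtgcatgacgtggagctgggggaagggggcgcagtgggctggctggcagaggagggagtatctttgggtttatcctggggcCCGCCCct
Timp1, bases 16 to 45 after the start (chrX:20870181-20870210, plus strand): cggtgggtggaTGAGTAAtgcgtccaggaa
Timp2 (chr11:118355431-118355460, minus strand): ctggggagggctGGGCGGcgcggcgcggga
Timp3 (chr10:86300385-86300414, plus strand): tccgggccggctCCGCCCtgtcgccccgcg
Timp4 (chr6:115252206-115252305, minus strand): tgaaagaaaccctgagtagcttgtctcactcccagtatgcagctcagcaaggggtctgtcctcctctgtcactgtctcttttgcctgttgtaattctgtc
Reck (chr4:43875430-43875529, plus strand): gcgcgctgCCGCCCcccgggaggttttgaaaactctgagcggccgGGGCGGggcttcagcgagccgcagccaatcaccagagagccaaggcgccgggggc

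The windows searched ran from 250 bases before to 50 bases after each start, on both strands. GGGCGG was found in the windows of Timp1, Timp2, Timp3 and Reck and not in that of Timp4, and 35.7% of 32851 RefSeq promoter windows of this length held it. The Timp3 window held 2 matches, of which the one after the start is not printed. In the Reck window 3 matches were found, the last of which crosses the start and is not whole in the stretch above. TGAGTAA was found only in the Timp1 window and occurred in 2.68% of all windows. No other variant of the AP-1 consensus was searched, so this share does not measure how unusual the Timp1 match is. The AP-1 consensus TGANTCA (7.81% of windows) and TATAAA (13.6% of windows) were found in none of the 5 windows. Motifs were matched by letters alone, and both AP-1 patterns share no match because they differ in the sixth letter.

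The gene models (GENCODE, GRCm38) place the Timp genes close to or inside other genes. Timp1 (ENSMUSG00000001131, chrX:20870166-20874735, plus strand) lies on the opposite strand inside the synapsin gene Syn1 and shares no exon base with it. Timp3 (ENSMUSG00000020044, chr10:86300372-86349506, plus strand) lies inside Syn3, again on the opposite strand, and 1733 of its 8144 exon bases (21.3%) are also exonic in Syn3. Timp4 (ENSMUSG00000030317, chr6:115241892-115252205, minus strand) lies inside Syn2 with 90 shared exon bases (1.53%). Timp2 (ENSMUSG00000017466, chr11:118301069-118355740, minus strand) spans Cep295nl on its own strand without sharing an exon base. Reck (ENSMUSG00000028476, chr4:43875530-43944806, plus strand) has 22 exons in its longest transcript and shares no exon base with another gene. The sources used here do not say whether reads were assigned by strand, so reads from the shared exon bases of Timp3 and Syn3, and of Timp4 and Syn2, cannot be told apart. Syn3 was given 0.494% to 0.815% as many counts as Timp3 in the same library, and Syn2 11.4% to 62.6% as many as Timp4. Syn1 received 12.6% to 56.0% as many counts as Timp1, and Cep295nl 1.78% to 3.74% as many as Timp2. None of these neighbours was called by DESeq2, edgeR or limma-voom and 1 had an unadjusted DESeq2 p under 0.05, with log2 fold changes of -0.31 for Syn1 (DESeq2 adjusted p = 0.457), 0.43 for Syn3 (DESeq2 adjusted p = 0.357) and 0.60 for Cep295nl (DESeq2 adjusted p = 0.0671). Syn2, which averaged 10.3 normalised counts in naive animals and 6.75 after DMM, had no adjusted p after the filter on low means. Cep295nl was called by DESeq2 with total count scaling, without naive replicate 4 and without DMM replicate 4.

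The libraries held 12479443 to 16548002 estimated counts in all. The naive libraries had 18276 to 18467 genes with 10 or more counts, except naive replicate 2 with 16770, and the DMM libraries had 18245 to 19271. Chondrocyte markers such as Acan and Col2a1 were present in every library, and the 10 genes of that list took 0.241% to 0.396% of the counts in naive and 0.641% to 1.21% in DMM libraries. Of these 10 genes 5 were called higher (Acan, Col2a1, Col11a1, Comp and Sox9), and the other 5 were not called, with Col9a1 at -0.36 and Matn3 at -0.29 on the log2 scale. Other cell types were also represented. The 8 osteoblast and osteocyte markers rose from 0.888% to 1.30% of the counts to 2.52% to 3.13%, and all 8 were called higher. The 10 neutrophil markers fell from 0.837% to 1.17% to 0.392% to 0.825%, with all 10 called lower. Erythroid markers (7 genes, 6 called lower) took 0.600% to 0.971% in naive and 0.330% to 0.698% in DMM libraries, with overlap. The megakaryocyte and platelet list (6 genes, 5 called lower) took 0.0347% to 0.0474% and 0.0196% to 0.0252%. The 6 endothelial markers (3 called higher) took 0.0209% to 0.0299% in naive and 0.0356% to 0.0405% in DMM libraries. The groups overlapped for synovial fibroblast markers (7 genes, 0.0772% to 0.0981% against 0.0881% to 0.131%), osteoclast markers (7 genes, 0.0350% to 0.0678% against 0.0540% to 0.0928%), B cell markers (6 genes, 0.0175% to 0.0227% against 0.0208% to 0.0441%), macrophage markers (6 genes, 0.0416% to 0.0440% against 0.0422% to 0.0510%) and mast cell markers (5 genes, 0.00452% to 0.00540% against 0.00345% to 0.00478%). Of the synovial fibroblast markers Thy1, Pdgfra and Dpt were called higher, and Pi16, Dpp4, Clic5 and Cxcl12 were not called. Ocstamp among the osteoclast markers was called higher, and Cpa3 among the mast cell markers lower. No B cell or macrophage marker was called. Every marker had a count in at least 1 library. By a two-sided exact permutation test the chondrocyte, osteoblast, endothelial, neutrophil and megakaryocyte shares each reached p = 0.0286, the smallest that 4 against 4 libraries allow, and 0.0744 after adjustment over the 13 lists. The part of these shares in the inhibitor levels was not tested, and in bulk tissue fewer cells of a type and less RNA per cell cannot be told apart.

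Timp1, the TIMP that is best known as an inducible gene, had 68.6, 99.8, 124 and 166 normalised counts in naive replicates 1 to 4 and 262, 231, 303 and 264 in DMM replicates 1 to 4. The lowest DMM library lay above the highest naive one. The group means were 115 ± 40.9 (SD, n = 4) and 265 ± 29.4 (SD, n = 4), and the coefficient of variation was 35.7% in naive and 11.1% in DMM libraries. The log2 fold change was 1.22 with an SE of 0.24 (DESeq2 adjusted p = 1.20e-05), and the 95% interval of the fold ran from 1.68 to 3.21. By p Timp1 stood at rank 426 of the 17760 genes. It stayed called in all 8 fits that left out 1 library, with log2 fold changes from 1.03 without naive replicate 1 to 1.45 without naive replicate 4. Against a null of 1.5-fold the call was lost (DESeq2 adjusted p = 0.595).

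Timp2, expressed in many tissues and the usual partner of Mmp14 and Mmp2, was far more abundant. It had 2146, 2514, 2719.5 and 3953 normalised counts in naive replicates 1 to 4, and 6623, 5352, 7959.6 and 4869 in DMM replicates 1 to 4. The groups did not overlap, though DMM replicate 4 came closer to the highest naive library than to the highest DMM library. The means were 2833 ± 783 (SD, n = 4) and 6201 ± 1386 (SD, n = 4). The log2 fold change was 1.13 with an SE of 0.20 (DESeq2 adjusted p = 1.85e-06), a fold of 1.66 to 2.89 at 95%, which was rank 274 by p. All 8 fits without 1 library kept the call, with log2 fold changes from 0.99 to 1.33. It too was lost against a null of 1.5-fold (DESeq2 adjusted p = 0.580).

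Reck had 252, 314, 341 and 336 normalised counts in naive replicates 1 to 4 and 379.8, 419, 489.8 and 383 in DMM replicates 1 to 4. All 4 DMM libraries were above the highest naive library, by a small margin in replicates 1 and 4. The means were 311 ± 41.1 (SD, n = 4) and 418 ± 51.2 (SD, n = 4). The log2 fold change of 0.43 (SE 0.15) had a DESeq2 adjusted p of 0.0221, and Reck was not called because its estimate of 1.35-fold (95% interval 1.1 to 1.65) was under 1.5-fold. With Reck, 3 of the 5 genes had an adjusted p of 0.05 or less, beside 22.6% of all genes tested, and 3 of the 5 had groups without overlap, beside 22.2%. The adjusted p stayed at 0.05 or less in only 4 of the 8 fits that left out 1 library. It was 0.11 without naive replicate 1, 0.0523 without naive replicate 2, 0.0620 without DMM replicate 2 and 0.0882 without DMM replicate 3, all by DESeq2.

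Timp3, the matrix-bound inhibitor, had 4047, 3881, 4979.9 and 5825 normalised counts in naive replicates 1 to 4 and 4392, 6779, 7202 and 6749 in DMM replicates 1 to 4. In 3 of 4 DMM libraries it was above every naive library, and DMM replicate 1 lay among the naive values. The means were 4683 ± 902 (SD, n = 4) and 6281 ± 1276 (SD, n = 4), the log2 fold change was 0.42 with an SE of 0.18, and the DESeq2 adjusted p was 0.0739. The fold interval of 1.05 to 1.71 does not show that Timp3 was equal in the groups. Without DMM replicate 1 the log2 fold change was 0.56 (DESeq2 adjusted p = 0.00513) and without naive replicate 4 it was 0.54 (DESeq2 adjusted p = 0.0118), both still under 1.5-fold. The other 6 such fits gave 0.34 to 0.45, and the largest DESeq2 adjusted p was 0.211. DMM replicate 1 also had the highest osteoblast and osteocyte share (3.13%) and the lowest chondrocyte share among the DMM libraries (0.641%). DMM replicate 2, with Timp3 at 6779, had nearly the same chondrocyte share (0.655%), and all naive libraries had lower shares of both lists. The part of these shares in the Timp3 level was not tested.

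Timp4, known from heart, brain and adipose tissue, was measured with 11.2 to 51.7 estimated counts per library. Its normalised counts were 29.9, 19.96, 22.5 and 46.5 in naive replicates 1 to 4 and 19.1, 55.9, 21.4 and 9.93 in DMM replicates 1 to 4, so that both the highest and the lowest value came from DMM libraries. The means were 29.7 ± 11.96 (SD, n = 4) and 26.6 ± 20.2 (SD, n = 4), with a coefficient of variation of 75.9% in DMM libraries. The log2 fold change was -0.18 with an SE of 0.50 (DESeq2 adjusted p = 0.856). Its interval of -1.16 to 0.81 spans more than 1.5-fold in both directions, so neither a difference nor equal levels were shown. Without DMM replicate 2 the log2 fold change was -0.82, and without naive replicate 4 it turned to 0.12. Over the 8 such fits the DESeq2 adjusted p was 0.217 to 0.972. The 6 adipocyte markers, such as Adipoq and Plin1, took their highest share in the library with the highest Timp4 (0.0545% in DMM replicate 2) and, among naive libraries, in that with the highest naive Timp4 (0.0248% in naive replicate 4). Their shares were 0.0101% to 0.0172% in the other naive and 0.0139% to 0.0336% in the other DMM libraries, and none of the 6 markers was called by DESeq2, edgeR or limma-voom, although 3 had an unadjusted DESeq2 p under 0.05. At Timp4 counts of 19.1 and 21.4, DMM replicates 1 and 3 had adipocyte shares of 0.0305% and 0.0336%. Naive replicates 2 and 3, at 19.96 and 22.5, had 0.0101% and 0.0114%. The adipocyte marker Retn had its lowest count, 5.375, in DMM replicate 2 and its highest, 30.6, in naive replicate 4. The part of adipocytes in the Timp4 level was not tested.

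**Figure D2:**
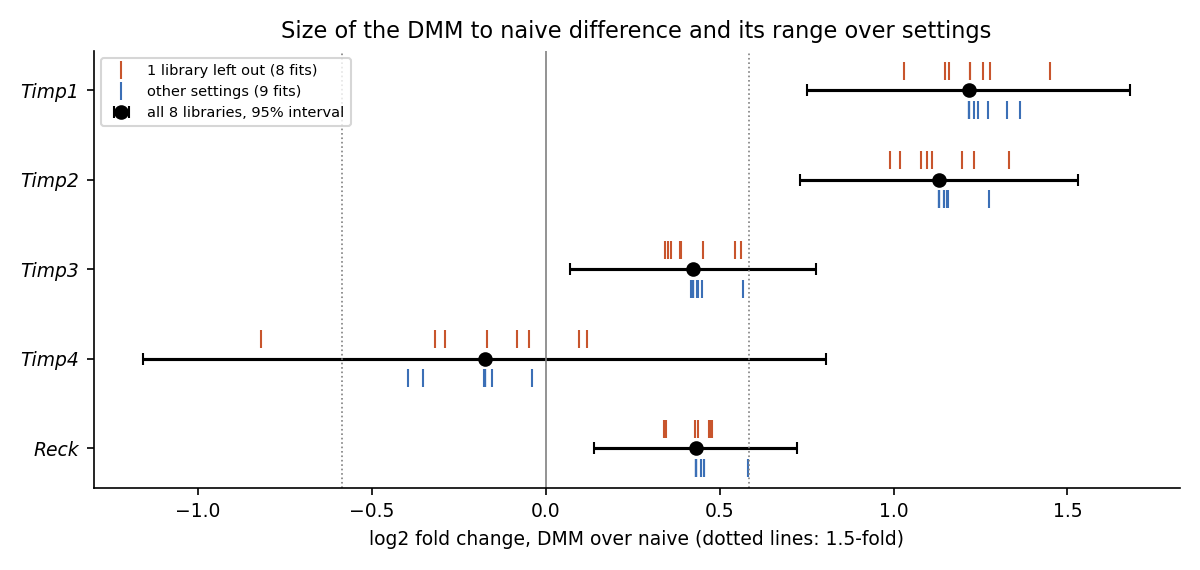
Log2 fold change of DMM over naive for each gene with its 95% interval from the DESeq2 standard error (black), the 8 fits without 1 library (orange ticks above) and the 9 other settings (blue ticks below). The settings without independent filtering, without a fold threshold and with a null of 1.5-fold repeat the main estimate. Dotted lines mark 1.5-fold. All ticks of Timp1 and Timp2 lie beyond 1.5-fold, those of Timp3 and Reck lie between 0 and that line, and those of Timp4 fall on both sides of 0.

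Compared per kilobase of transcript, the inhibitors spanned more than 2 orders of magnitude. The order in naive libraries was Timp3 (2317 ± 446 normalised counts per kilobase, SD, n = 4), Timp2 (1280 ± 354), Timp1 (133.5 ± 47.7), Reck (70.1 ± 9.28) and Timp4 (9.22 ± 3.71). Neighbours in this order had separate ranges in the naive libraries. In DMM libraries the levels were 3108 ± 631 for Timp3, 2801 ± 626 for Timp2, 309 ± 34.3 for Timp1, 94.3 ± 11.5 for Reck and 8.25 ± 6.26 for Timp4. The ranges of Timp3 (2173 to 3564) and Timp2 (2200 to 3596) then overlapped almost fully, and Timp2 was above Timp3 in DMM replicates 1 and 3. The summed Timp level was 3740 ± 832 in naive and 6226 ± 895 in DMM libraries. Given as the naive and then the DMM mean ± SD over 4 libraries, Timp3 took 62.3% ± 2.98 and 49.9% ± 8.00 of that sum, Timp2 34% ± 2.55 and 45% ± 7.78, Timp1 3.50% ± 0.604 and 5.00% ± 0.518, and Timp4 0.244% ± 0.0646 and 0.134% ± 0.104. Every DMM library had a lower Timp3 share (39.7% to 57.1%) than any naive library (59.1% to 65.4%). These levels rest on the median length of each gene's annotated transcripts. With the longest transcript instead, the Timp3 share was 52.8% in naive and 40.3% in DMM libraries, the Timp2 share was 40.2% and 50.4%, Timp2 then stood above Timp3 after DMM, and the ranges of both genes already overlapped in naive libraries.

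**Figure D3:**
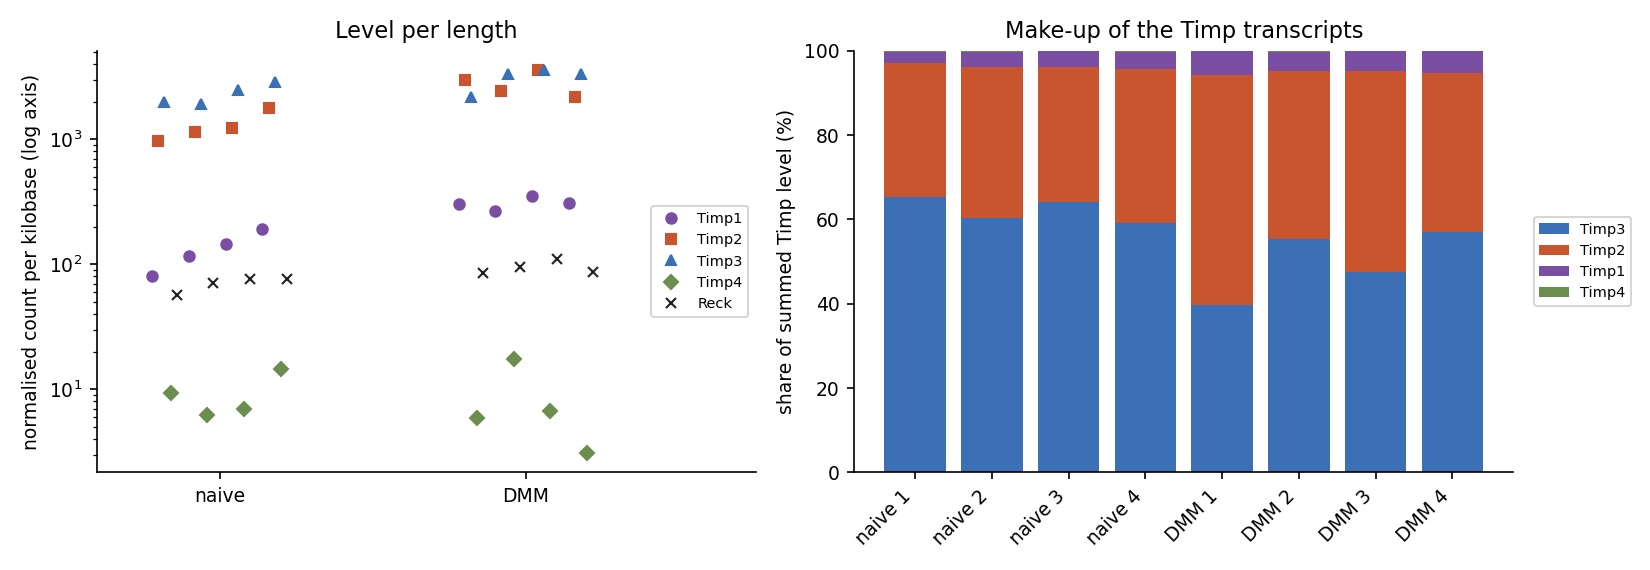
Left, normalised counts per kilobase of transcript for the 5 genes in each library, on a log axis. Right, share of each Timp gene in the summed Timp level of each library. Timp3 takes 59.1% to 65.4% of the sum in naive and 39.7% to 57.1% in DMM libraries, and Timp4 is too scarce to be seen in the bars.

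Ratios of counts within a library do not depend on library scaling and were used to ask whether the inhibitors differed from each other in response. Each of the 10 pairs was compared between the groups by a two-sided exact permutation test over the 70 assignments of libraries. The Timp1 to Timp3 ratio was 0.86 higher in DMM on the log2 scale and Timp1 to Reck was 0.84 higher. Timp2 to Timp3 was 0.72 higher and Timp2 to Reck 0.71 higher. None of these 4 ratios overlapped between the groups, each with an exact permutation p = 0.0286, the smallest possible, and 0.0715 after adjustment over the 10 pairs, so none passed at 0.05. With this smallest p, a single pair could not pass after adjustment, whatever the size of its difference. The ratio of Timp1 to Timp2 differed by 0.13 (exact permutation p = 0.486) and that of Timp3 to Reck by -0.01 (exact permutation p = 1.0), with overlapping ranges. The pairs with Timp4 overlapped. Across the 8 libraries the log2 normalised counts of Timp1 and Timp2 had a Pearson correlation of 0.962, those of Timp1 and Reck 0.921 and those of Timp2 and Reck 0.904. Those of Timp1, Timp2 and Reck with Timp3 were 0.687 to 0.787, and those of all others with Timp4 -0.187 to 0.078. The points are the same 8 libraries of 2 groups throughout, so these correlations describe the group difference together with the spread within groups.

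By the same measure over 11006 genes that averaged 100 or more normalised counts, the genes most like Timp1 were B3gnt9 (0.998), Fmn1 (0.995) and the collagen VI gene Col6a2 (0.994). Those most like Timp2 were Fam167a (0.994), the heparan sulphate sulphatase gene Sulf2 (0.993) and Edil3 (0.993). The genes like Timp3 included Acadsb (0.971) and Tnfrsf11b (0.970), which encodes the RANKL decoy receptor osteoprotegerin. The lower correlations of Timp4 were led by the lipoprotein lipase gene Lpl (0.903), Vps33b (0.889) and clusterin, Clu (0.866). Reck was most like Ids (0.984), the Wnt secretion factor gene Wls (0.981) and Cyp20a1 (0.979). These are the highest of 11006 correlations over 8 libraries, so selection alone can give high values, and none was tested.

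Of the secreted MMPs, which are the shared targets of the TIMPs, 10 of 17 genes had an adjusted p, 6 were called higher and none lower, and their median log2 fold change was 0.79 beside -0.02 over all genes tested. Mmp3 (stromelysin 1), which activates other MMPs, had 25.5, 23.9, 62.1 and 45.4 normalised counts in naive replicates 1 to 4 and 615, 297, 606 and 252 in DMM replicates 1 to 4. No library overlapped, and the difference of 3.50 on the log2 scale (SE 0.35, DESeq2 adjusted p = 7.84e-20) was larger than that of any inhibitor. The gelatinase gene Mmp2 rose from 1715 ± 500 to 5969 ± 2004.5 (SD, n = 4 each), which was 1.80 on the log2 scale (DESeq2 adjusted p = 6.43e-10). The collagenase gene Mmp13 rose by 0.91 (DESeq2 adjusted p = 0.000222) and Mmp23 by 1.07 (DESeq2 adjusted p = 0.000833), also on the log2 scale. Among the 6 called, Mmp28 (0.66, DESeq2 adjusted p = 0.0409) kept its call in only 2 of the 8 fits without 1 library. Mmp9, the gelatinase that Timp1 binds as a proform, was at 7308 ± 1349 and 7612 ± 1799 (SD, n = 4 each), a log2 difference of 0.06 (DESeq2 adjusted p = 0.874). Neutrophils carry Mmp9, and the neutrophil marker share was lower in the DMM libraries, as given above. Mmp9 had 7372, 9058.5, 5792 and 7008 normalised counts in naive replicates 1 to 4. DMM replicates 1 to 4 had 8934, 5289, 7098 and 9128. Neutrophil shares in the same order were 1.06%, 1.08%, 1.17% and 0.837%, then 0.392%, 0.526%, 0.775% and 0.825%. Osteoclast shares were 0.0492%, 0.0427%, 0.0350% and 0.0678%, then 0.0928%, 0.0540%, 0.0700% and 0.0919%. The part of either cell type in the Mmp9 and Mmp25 levels was not tested.

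Among the membrane-type MMPs all 6 genes had an adjusted p, 2 were called higher and 1 lower, with a median of 0.34. Mmp14, which forms the complex with Timp2, rose by 0.92 (SE 0.14, DESeq2 adjusted p = 2.66e-08) and Mmp15 by 0.94 (DESeq2 adjusted p = 0.00579). Mmp25, a leukocyte MMP, fell by 0.82 (DESeq2 adjusted p = 0.000298). Of the Adam sheddases 8 of 9 genes had an adjusted p and 2 were called higher, with a median of 0.17. Adam9 (0.59, DESeq2 adjusted p = 0.000513) and Adam12 (0.60, DESeq2 adjusted p = 0.00510) were close to the fold threshold, and each kept its call in 5 of the 8 fits without 1 library. No sheddase was called without naive replicate 1, and 1 was called without naive replicate 2, naive replicate 3 or DMM replicate 1. The Reck target Adam10 was at -0.31 (DESeq2 adjusted p = 0.0471), which did not reach 1.5-fold. The Timp3 target Adam17 was at 0.11 (DESeq2 adjusted p = 0.561).

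The Adamts proteoglycanases, inhibited by Timp3, had 6 of 7 genes with an adjusted p, of which 4 were called higher, with a median of 0.79. These were Adamts9 (0.65, DESeq2 adjusted p = 0.000185), Adamts1 (0.78, DESeq2 adjusted p = 0.00302), Adamts15 (0.96, DESeq2 adjusted p = 0.0132) and Adamts4 (0.79, DESeq2 adjusted p = 0.0339). The edgeR quasi-likelihood test called 2 of this list, as did DESeq2 without naive replicate 1 or 2, and without DMM replicate 1 only 1 was called. Over the 8 fits without 1 library Adamts1 kept its call in all 8, Adamts9 in 6, Adamts15 in 5 and Adamts4 in only 3. Adamts5, the main aggrecanase of mouse cartilage, was at 877 ± 186 and 753 ± 167 normalised counts (SD, n = 4 each), a log2 difference of -0.22 (DESeq2 adjusted p = 0.468).

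Other inhibitors that act on metalloproteinases were mostly scarce. Only 3 of 9 genes had an adjusted p and their median was -0.04. None was called by DESeq2, edgeR or limma-voom, and 1 of the 3 had an unadjusted DESeq2 p under 0.05. The general protease inhibitor A2m was at 92.9 ± 29.7 and 57.0 ± 20.6 normalised counts (SD, n = 4 each), a log2 difference of -0.72 (DESeq2 adjusted p = 0.0928). Of the receptors and binding partners of TIMPs, 2 of 8 were called higher, with a median of 0.33. These were the endocytic receptor Lrp1, which takes up TIMPs (0.67, DESeq2 adjusted p = 0.00137), and the integrin gene Itga3 (0.88, DESeq2 adjusted p = 0.00302). Only 1 of this list was called without naive replicate 1. The Timp1 receptor Cd63 was at 0.29 (DESeq2 adjusted p = 0.0712). Of the genes that act with Reck in Wnt7 signalling, 5 of 7 had an adjusted p and 3 were called higher, with a median of 0.59. Adgra2, the Reck partner, rose by 1.01 (DESeq2 adjusted p = 1.51e-05), Fzd4 by 0.72 (DESeq2 adjusted p = 0.000246) and Lrp6 by 0.59 (DESeq2 adjusted p = 0.000103). Lrp6 kept its call in 4 of the 8 fits without 1 library. The scarce ligands Wnt7a and Wnt7b had no adjusted p after the filter on low means. Wnt7a averaged 0.283 normalised counts in naive animals and 0.226 after DMM. Wnt7b had 0 to 7.49 in the naive and 9.12 to 17.1 in the DMM group, without overlap (log2 fold change 1.69, with an unadjusted DESeq2 p under 0.05). Adgra2 and Fzd4 are also found in endothelial cells, whose marker share was higher in the DMM libraries, as given above, and the part of that share in these differences was not tested.

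**Figure D4:**
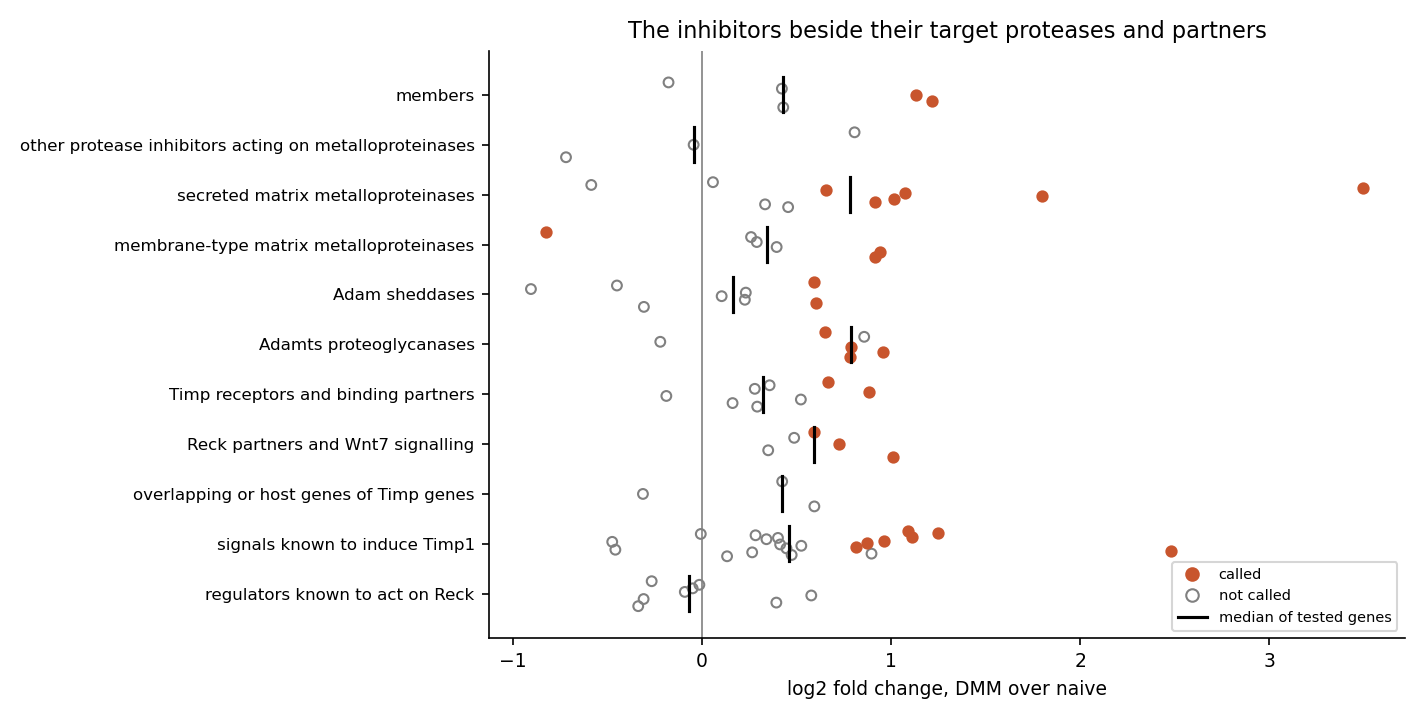
Log2 fold change of DMM over naive for the tested genes of each list, with called genes filled in orange, other genes open and the list median as a black line. Mmp3, Il11, Mmp2 and Tgfb2 lie to the right of both called inhibitors.

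Inhibitors and partners were then set against each other within libraries, over 11 pairs that were chosen after their values were seen. The Timp1 to Mmp3 count ratio fell by 2.20 on the log2 scale, from a mean of 1.57 in naive to -0.63 in DMM libraries, and the Timp1 to Mmp9 ratio was 1.23 higher. The Timp2 to Mmp2 ratio fell by 0.65, whereas Timp2 to Mmp14 differed by 0.21 with overlap (exact permutation p = 0.171). The Reck to Mmp14 ratio fell by 0.50, and the Reck to Adam10 ratio was 0.73 higher. These 5 ratios without overlap each had an exact permutation p = 0.0286 and 0.0629 after adjustment over the 11 pairs, so none passed at 0.05. As for the pairs of inhibitors, a single pair could not pass, whatever the size of its difference. The ratios of Timp3 overlapped between the groups, at differences of -0.44 for Adamts4, 0.64 for Adamts5, 0.32 for Adam17 and -0.50 for Mmp13, with exact permutation p from 0.143 to 0.229. Reck to Adgra2 differed by -0.55 (exact permutation p = 0.0857).

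**Figure D5:**
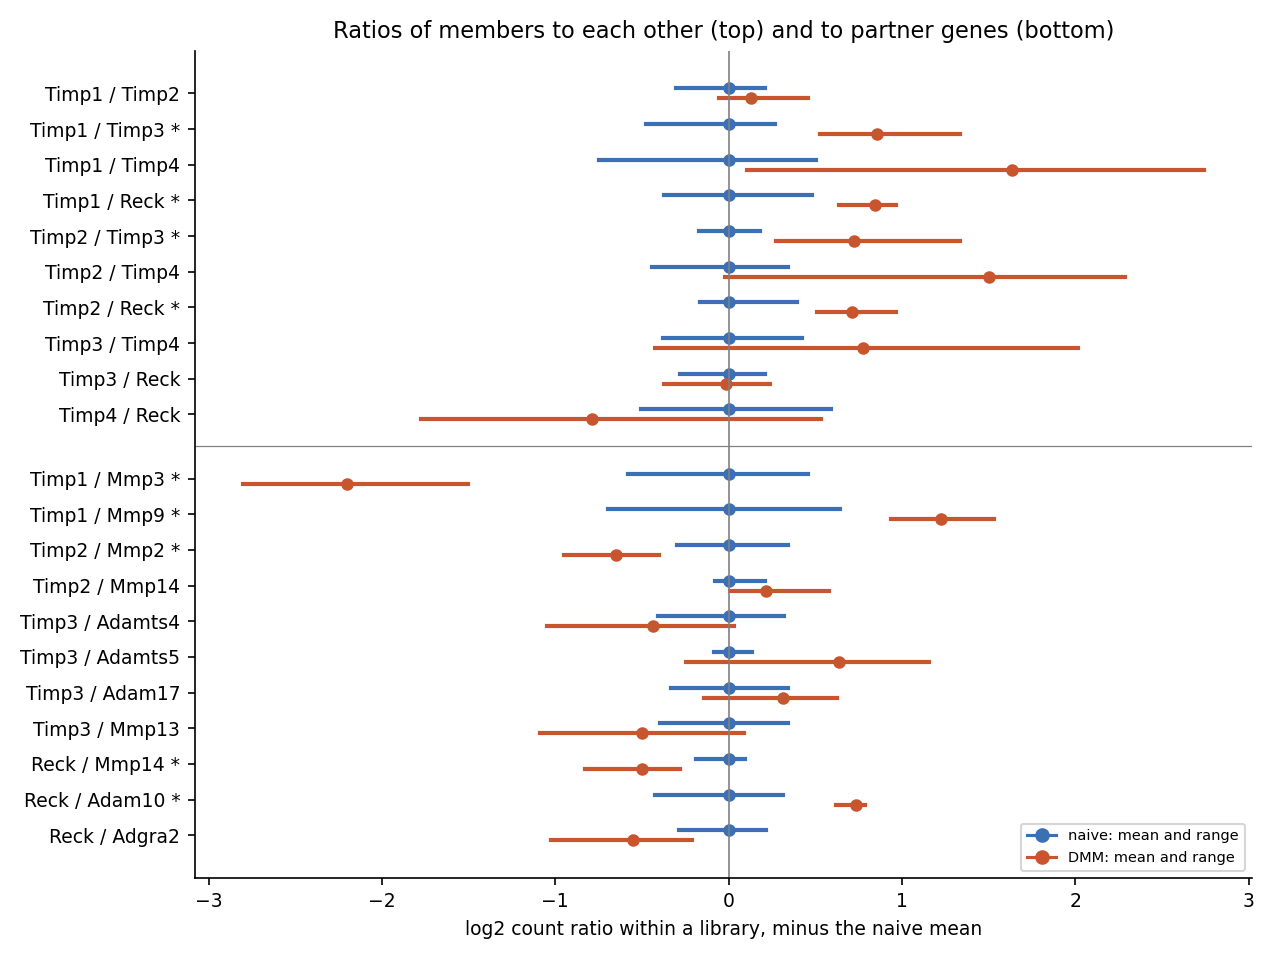
Log2 count ratio within a library for 10 pairs of inhibitors (top) and 11 pairs of an inhibitor and a partner gene (bottom), as the mean (point) and the range of 4 libraries (line) in each group, both shown minus the naive mean. An asterisk marks pairs whose ranges do not overlap, which are 4 of the 10 and 5 of the 11 pairs.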

How the data were processed

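RNA from medial knee cartilage was sequenced from 4 naive and 4 DMM mice. The authors deposited 1 table of estimated counts per gene and library, made per the study's methods by trimming reads, quantifying transcripts with Kallisto and summing them per gene with Tximport, and 39.2% of the values were not whole. The methods name the mouse GRCm38 transcriptome, whereas the labels name GRCh38, and the library kit differs between labels and methods. Counts were rounded and tested in R 4.3.3 with DESeq2 1.42.0 (Wald test, no covariates, all 8 libraries, independent filtering), the test and thresholds of the study. Alternatives were edgeR 4.0.16, limma 3.58.1 (voom), other scaling, filters and thresholds, a replicate block and leaving out each library. The scripts were tested on simulated data. Count ratios added 0.5 to each count and were compared by two-sided exact permutation tests. Symbols matched 48855 of 50462 identifiers, and levels per length used GENCODE transcripts. The inhibitors, gene lists and tests were chosen with earlier results of these data known. Named are the inhibitors, up to 4 called genes per list with the smallest adjusted p, a fixed set of partners, host genes, and the 3 genes most correlated with each inhibitor, of which 1 is not reported here. Ratios with partner genes were chosen after their values were seen. So was the mention of Wnt7a, Wnt7b, Osm, Il1b, Il6, Tgfb1, Tgfb2, Lif, Jun, Mmp28 and single cell type markers. P-values measure the spread between mice. Intervals come from the Wald standard error and include no error of the scaling.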

Additional observations from a re-analysis of the deposited data

Results flagged for a closer look

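Values were checked in 72 groups of 4 libraries for 1 library far from the other 3, of which chance alone gives about 3.6, and 6 were found. The Timp3 normalised count of DMM replicate 1 was 4392, with the other DMM libraries at 6749 to 7202. Naive replicate 2 had 16770 genes with 10 or more counts, and an endothelial marker share of 0.0209% beside 0.0294% to 0.0299% in the other naive libraries. DMM replicate 3 had an erythroid marker share of 0.698%, with the other DMM libraries at 0.330% to 0.349%. The skeletal muscle marker share was 0.00321% in naive replicate 3, where the other 3 naive libraries had 0.000443% to 0.000846%, and 0.00904% in DMM replicate 1, above 0.000391% to 0.000959% in the other DMM libraries. DMM replicate 1 thus stood apart in both Timp3 and muscle markers, and whether these are related was not tested. Without DMM replicate 1 Timp1 and Timp2 stayed called, and Timp3 stood at 0.56 on the log2 scale (DESeq2 adjusted p = 0.00513). Without naive replicate 2 Timp1 and Timp2 also stayed called.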

How the results depend on the processing

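Timp1 and Timp2 were called in 8 of 9 alternative settings and in all 8 fits without 1 library, and Timp3 and Timp4 in none. The exception was the null of 1.5-fold, where 0 of the 5 inhibitors were called (Timp1 at 1.22 and DESeq2 adjusted p = 0.595, Timp2 at 1.13 and DESeq2 adjusted p = 0.580), 3 of the other list genes and 94 of all genes (80 higher, 14 lower). Without a fold threshold 4010 genes (1989 lower) and also Reck, at 0.43, were called. This setting used the main fit with a looser rule, so it could not lose a call. Leaving out independent filtering kept the same estimates and changed only the adjusted p. Scaling by total counts shifted the median gene by 0.14 against -0.01, called 489 genes lower, and gave Timp3 0.57 (DESeq2 adjusted p = 0.0211) and Reck 0.58. Over the 9 settings (DESeq2, edgeR and limma) the adjusted p ran from 9.29e-07 to 0.595 for Timp1, 6.90e-08 to 0.580 for Timp2, 0.0211 to 1.0 for Timp3 and 0.00121 to 1.0 for Reck. Timp4 turned to 0.12 without naive replicate 4 and to 0.10 without DMM replicate 4, and the cause was not tested. Over the fits without 1 library its log2 fold change ran from -0.82 to 0.12. Of the 9 other protease inhibitors, 1 was called without naive replicate 2 or DMM replicate 2. Transcript length moved levels. With the longest transcript the shares in naive libraries were 6.72% (Timp1), 40.2% (Timp2) and 52.8% (Timp3), and in DMM libraries 9.13% (Timp1) and 40.3% (Timp3). The log2 level relative to Timp3 then changed from -4.17 to -2.99 in naive and from -3.31 to -2.13 in DMM libraries for Timp1, from -0.87 to -0.40 in naive libraries for Timp2, from -8.03 to -7.58 in naive libraries for Timp4, and from -5.04 to -3.85 in naive and -5.02 to -3.84 in DMM libraries for Reck. The cause of these changes is the annotated lengths, which differ most for Timp3 (median 2021, longest 4722 bases).

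With the replicate number as a replicate block, 2081 genes were called, Timp1 (1.27) and Timp2 stayed called, Reck stayed under the fold threshold at 0.43, and Timp3 was at 0.42 (DESeq2 adjusted p = 0.0349). Deviations from the group means correlated at -0.119 to 0.117 in same-numbered libraries and at -0.163 to 0.209 in differently numbered ones. The 2 groups were separate animals, and these values do not show whether the numbers mark a shared preparation. The low counts of Timp4 and its spread between libraries limit what can be said of it.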

Other observations

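Of 22 genes known to induce Timp1 or to carry such signals, 20 had an adjusted p, 7 were called higher and none lower. Their median log2 fold change was 0.46. Of all genes tested 7.75% were called higher. The oncostatin M receptor gene Osmr had 249, 295, 352 and 372 normalised counts in naive replicates 1 to 4 and 531, 589, 780.4 and 566 in DMM replicates 1 to 4, a log2 difference of 0.96 (DESeq2 adjusted p = 2.12e-06). The feedback inhibitor gene Socs3 rose by 1.11 (DESeq2 adjusted p = 2.56e-05) and Tgfb3 by 1.09 (DESeq2 adjusted p = 5.65e-05). The cytokine gene Il11, at 7.77 ± 2.35 and 43.0 ± 17.8 normalised counts (SD, n = 4 each), rose by 2.48 (DESeq2 adjusted p = 4.70e-06) and kept its call in 7 of the 8 fits without 1 library. Also called were Tgfb2 (1.25), Jun (0.82) and Lif (0.87, which kept its call in 4 such fits). Of the 13 tested genes not called, Tgfb1 was at -0.005 (DESeq2 adjusted p = 0.985) and Il1b at -0.46 (DESeq2 adjusted p = 0.213). The oncostatin M gene Osm was at -0.47 (DESeq2 adjusted p = 0.228), and the others of the 13 were positive. Il6 averaged 3.18 normalised counts in naive animals and 2.77 after DMM, with no adjusted p.

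Of 8 genes known to act on Reck, which included Sp1, Sp3, Hdac1 and the Ras genes, none was called, and their median was -0.07. At an adjusted p of 0.05 or less without a fold threshold 2 of them passed in DESeq2, 4 had an unadjusted p under 0.05, the edgeR quasi-likelihood test called 1 and limma-voom none. Hif1a, named here after its values were seen, was at 0.58 (DESeq2 adjusted p = 0.00109), just under 1.5-fold, and was called in 4 of the 8 fits without 1 library.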
